A study of Homo sapiens with 6 samples.

Results

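Interferon response genes are the genes that cells switch on when type I interferon binds its receptor. Small interfering RNAs, the reagents used to lower a gene's messenger RNA, are short duplexes that can set off the same programme in some cells, so these genes serve as a check on a knockdown experiment. The set holds 33 genes named for their known function, and 32 of them had a probe set annotated with that gene symbol alone, out of 18417 genes measured in that way. STAT2 had no such probe set and was not analysed here. Each of the 32 was represented by 1 probe set.

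RNA came from U-87 MG, an established human glioma cell line, and was measured on 6 Affymetrix arrays. The groups, both of U-87, were P68 knockdown (3 arrays) and P68 wild type (3 arrays), as labelled. P68 is the RNA helicase encoded by DDX5. The treatment note names transfection with siP68 or with a reagent abbreviated NC. Whether the wild-type samples received NC is not stated, and no group is labelled as untransfected. A response shared by both groups would not appear as a difference between them. Nothing in the labels says that replicates were separate cultures, and p-values therefore cover only the array-to-array spread, possibly a technical one.

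In background, double-stranded RNA is sensed in the cytosol by MDA5 and RIG-I and by the kinase PKR, and in endosomes by TLR3. The sensors lead to interferon release, and interferon then acts through JAK1 and TYK2 on a complex that holds STAT2 and IRF9. That complex binds the interferon-stimulated response element, a short motif before the start of most of these genes. Their products block translation, degrade RNA, trap particles at membranes or tag proteins with ISG15.

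The response element was searched for in promoter sequences, since it is the feature that the 33 genes share by function and that the arrays did not measure. RefSeq promoter windows (GRCh38.p14), from 250 bases before to 50 bases after a start, were given for 26 of the 33 genes. The core, GAAA and GAAA parted by any 2 bases, was sought on both strands, with overlapping matches counted. It lay in at least 1 window of 20 of these 26 genes, against 4.38% of all 27305 genes with a window. The second interferon motif, the gamma-activated site (TTC and GAA parted by any 3 bases), lay in 8 of the 26, against 9.38% of all genes. The core was not in the windows of HERC6, IFI35, IRF9, OAS1, STAT2 or XAF1, which says only that these letters are not in those windows. In capitals, 1 core match each is shown for ISG15 and IFIT1, common readouts of the response, and for IFIT3, ISG20, IFI44L and SAMD9. The groups of IFIT3, ISG20 and IFI44L did not overlap on the arrays, and SAMD9 was brightest on 1 knockdown array. MX1 and RSAD2, not shown, also had the core and groups apart. OAS1 had groups apart without the core, and IRF9 was brightest on the same array as SAMD9 without it. Whether the core goes with the array values was not tested. Each stretch shown is written 5′ to 3′ on the gene's strand and ends before the start. Capitals that read TTTC first are the core on the opposite strand.
ISG15, chr1:1013370-1013419, plus strand: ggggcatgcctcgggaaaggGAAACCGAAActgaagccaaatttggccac
IFIT1, chr10:89392500-89392549, plus strand: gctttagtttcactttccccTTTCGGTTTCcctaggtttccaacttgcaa
IFIT3, chr10:89327855-89327904, plus strand: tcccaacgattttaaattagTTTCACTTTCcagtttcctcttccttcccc
ISG20, chr15:88638927-88638976, plus strand: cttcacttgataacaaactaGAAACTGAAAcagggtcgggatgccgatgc
SAMD9, chr7:93118086-93118135, minus strand: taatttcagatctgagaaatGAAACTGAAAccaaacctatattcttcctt
IFI44L, chr1:78620264-78620313, plus strand: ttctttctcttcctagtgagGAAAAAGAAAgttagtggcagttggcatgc
The capitals began 107 bases before the start in ISG15, 103 in IFIT1 and 122 in IFIT3. They began 69 bases before it in ISG20, 136 in SAMD9 and 164 in IFI44L. Further matches, not put in capitals, began 113 bases before the start in ISG15, 116 in IFIT1 and 156 in IFIT3. IFIT3 also had a window at another start, with matches that began 94 and 51 bases before it. In IFI44L the same 50 letters stood a second time, at chr1:78620355-78620404.

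The targeted gene was lower on every knockdown array. DDX5 read 9.47, 9.79 and 9.91 in the knockdown, against 10.09, 10.25 and 10.30 in the wild type, on the log2 scale of RMA signals used throughout. Knockdown replicate 1 was the lowest of the 6. The knockdown signal was 71.2% of the wild-type signal, with a log2 difference of -0.49 ± 0.13 (SE, n = 3 each). The exact permutation test (two-sided) gave p = 0.1, the smallest that 3 arrays against 3 allow, and the limma adjusted p over all genes was 0.902.

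No interferon response gene passed the test. None of the 32 had a limma adjusted p under 0.05, beside 0.0% of all genes tested, and their adjusted p-values lay between 0.902 and 0.991. At an unadjusted p under 0.05, 2 of the 32 were past the threshold and both were lower in the knockdown, against 5.09% of all genes. Values above 0 were found for 20 and below 0 for 12, where 53.4% of all genes lay above 0. The median log2 difference of the 32 was 0.07, against 0.01 over all genes, and the values ran from -0.29 to 0.22. Absolute differences under 0.25 made up 30 of the 32, against 91.9% of all genes. The groups did not overlap for 6 of the 32, against 10.1% of all genes. Of these, 4 were apart upward in the knockdown and 2 downward, where 5.98% and 4.15% of all genes were so.

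The confidence intervals bound the size of any difference in these signals. The upper 95% limit was below a 1.5-fold rise for all 32 genes, the highest being 1.42-fold for USP18. The same held for 96.6% of all genes, so this count describes the precision of the arrays and is not particular to the 32. The lowest of the lower limits was 0.657-fold, for PARP9. These are intervals for single genes with no adjustment for their number, and they hold for the array signal. Of the 32, 18 fell in the dimmest 40% of genes. Detection calls were not used here, so whether those signals exceed background is not known, and a fold near background would be understated. The dim part also held genes that are rarely silent, so a low signal is not read here as absent RNA. B2M, the light chain of class I molecules that nearly all nucleated cells make, read 3.39 to 3.54 in the knockdown and 3.47 to 3.61 in the wild type and was itself among the dimmest 40%. The adhesion receptor CD44, a marker of mesenchymal glioma cells, was also in that part, at 3.48 to 3.80 against 3.56 to 3.62. Among the 14 brighter interferon response genes, 10 lay above 0 and the median was 0.11. Over all genes above the same dim filter, 52.4% lay above 0 and the median was 0.007.

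**Figure D1:**
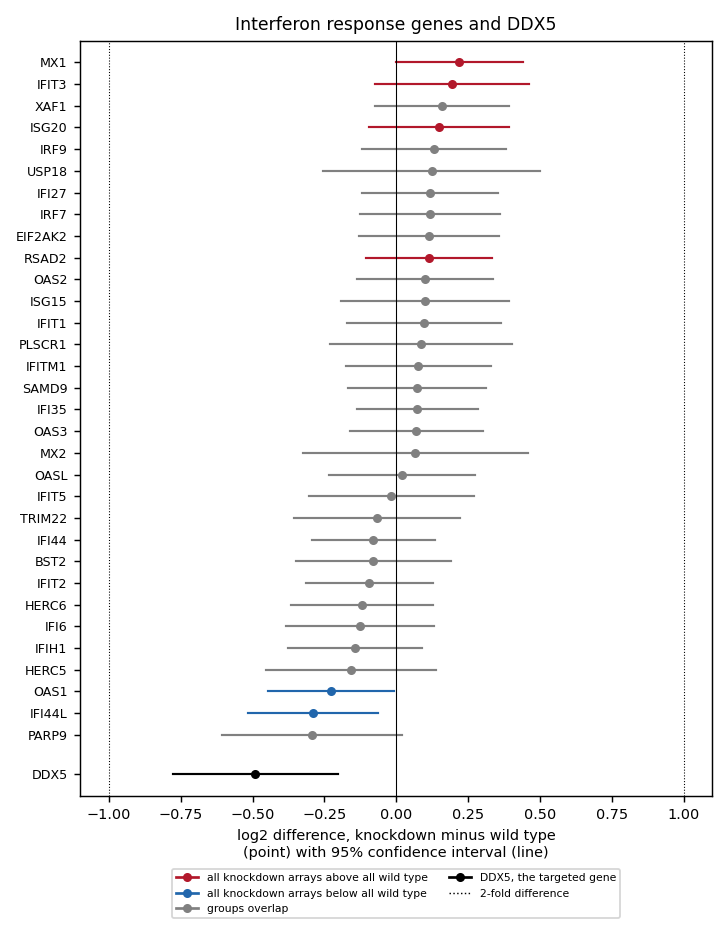
Log2 difference, knockdown minus wild type, for the 32 interferon response genes and DDX5 (points), with 95% confidence intervals from limma (lines, 3 arrays per group). The genes run from 0.22 for MX1 to -0.29 for PARP9, no interval reaches the dotted 2-fold lines, and red and blue mark the 4 and 2 genes whose groups did not overlap.

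The first role is the sensing of double-stranded RNA and the arrest of translation. IFIH1, which encodes the sensor MDA5, read 4.62, 4.36 and 4.52 in the knockdown, against 4.59, 4.64 and 4.70 in the wild type. The groups overlapped, and the log2 difference was -0.14 ± 0.11 (SE). EIF2AK2, which encodes the kinase PKR, read 2.31, 2.35 and 2.38 against 2.42, 2.15 and 2.13, among the dimmest 40% of genes, with the highest single value in wild-type replicate 1.

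The OAS genes encode synthetases of oligoadenylate, the signal that activates RNase L. OAS1 read 4.89, 4.86 and 4.80 in the knockdown, against 5.18, 5.03 and 5.02 in the wild type. All 3 knockdown arrays thus lay below all 3 wild-type arrays, with a log2 difference of -0.23 ± 0.10 (SE) and an adjusted p of 0.902 in limma. Its neighbours on chromosome 12 gave values on the other side of 0. OAS2 read 3.53, 3.32 and 3.38 against 3.22, 3.29 and 3.42. OAS3 read 4.26, 4.07 and 4.13 against 4.16, 4.11 and 3.98. Both overlapped between the groups, with differences of 0.10 and 0.07, and both were brightest in knockdown replicate 1. OASL, a relative that lacks synthetase activity and aids RIG-I, differed by 0.02 and was also brightest there, at 4.72.

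In the signalling arm, IRF9, the DNA-binding subunit of the interferon-activated complex, read 4.90, 4.81 and 4.77 in the knockdown, against 4.59, 4.61 and 4.89 in the wild type. Wild-type replicate 3 lay within the knockdown values. IRF7, the factor that amplifies interferon gene transcription, read 5.75, 5.62 and 5.61 against 5.70, 5.52 and 5.41. Their log2 differences were 0.13 ± 0.11 and 0.12 ± 0.11 (SE), and neither was past the threshold.

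USP18 removes ISG15 from proteins and restrains the interferon receptor. It had the widest range of the 32 genes, at 4.93, 4.21 and 4.31 in the knockdown, against 4.39, 4.42 and 4.27 in the wild type. The value of knockdown replicate 1 stood 0.51 above the next array, while knockdown replicate 2 was the lowest of the 6. The log2 difference was 0.12 ± 0.17 (SE) over all arrays and -0.10 when knockdown replicate 1 was left out. A second probe set, annotated with both USP18 and the pseudogene USP41P, disagreed with it, at 4.22, 4.49 and 4.31 in the knockdown, against 4.50, 4.90 and 4.70 in the wild type. There knockdown replicate 1 was the lowest array and every knockdown array lay below every wild-type array.

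ISG15, the ubiquitin-like protein that is among the strongest induced products in most cells, read 6.44, 6.87 and 6.45 in the knockdown, against 6.57, 6.40 and 6.49 in the wild type. Knockdown replicate 2 was high and the other two lay within the wild-type range, so the log2 difference of 0.10 ± 0.13 (SE) became -0.04 without that array. HERC5, the ligase that attaches ISG15, and its neighbour HERC6 gave -0.16 and -0.12, with overlapping groups in both.

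The IFIT proteins bind foreign RNA ends and block their translation. IFIT1 read 2.86, 2.88 and 2.95 in the knockdown, against 2.85, 2.57 and 2.98 in the wild type. IFIT2 read 2.95, 2.81 and 2.78 against 2.99, 2.88 and 2.95. IFIT5 read 3.21, 2.86 and 2.95 against 3.00, 2.86 and 3.21. These 3 genes overlapped between the groups, with log2 differences of 0.10, -0.09 and -0.02. IFIT3, which stabilises IFIT1 on its RNA, read 3.33, 2.97 and 2.96 against 2.83, 2.94 and 2.91. Its groups were apart, yet 2 of the knockdown arrays were within 0.03 of the highest wild-type array, and the log2 difference was 0.19 ± 0.12 (SE) over all arrays and 0.07 when knockdown replicate 1 was left out. All 4 genes were among the dimmest 40%.

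**Figure D2:**
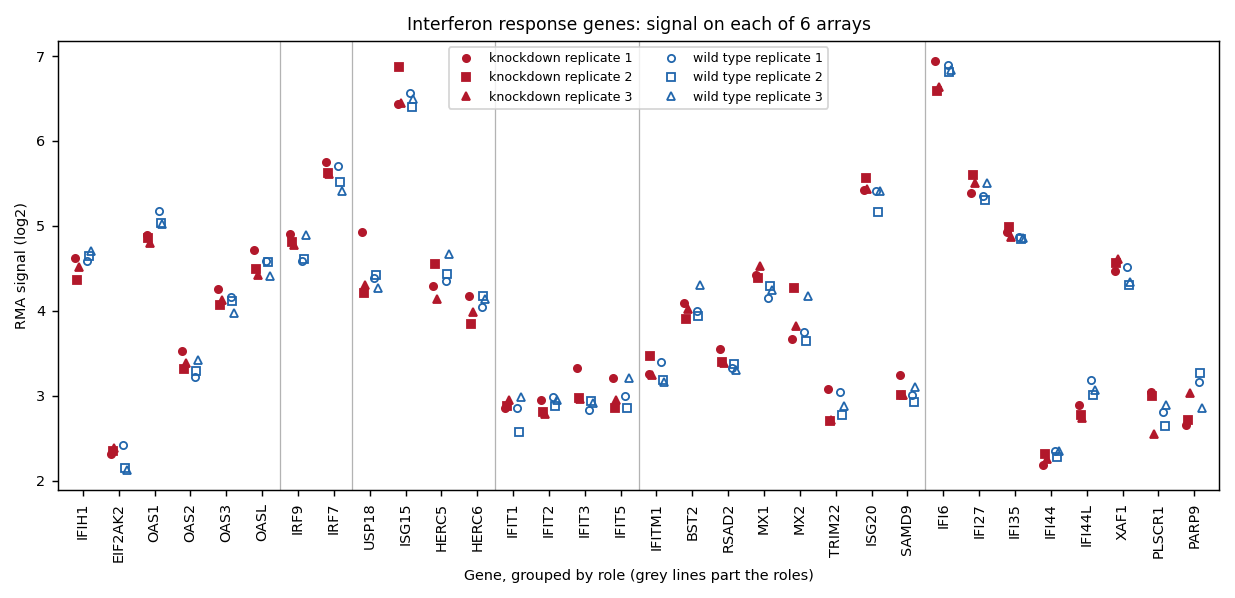
RMA signal (log2) of the 32 interferon response genes on each array, with filled red symbols for the 3 knockdown arrays and open blue symbols for the 3 wild-type arrays. Most genes overlap between groups, and single arrays stand out for USP18 (knockdown replicate 1 at 4.93), ISG15 (knockdown replicate 2 at 6.87) and IFIT3 (knockdown replicate 1 at 3.33).

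Among the antiviral effectors, MX1 gave the highest log2 difference of the 32 genes. MX1 is a dynamin-like GTPase that traps viral nucleocapsids. It read 4.42, 4.39 and 4.53 in the knockdown, against 4.15, 4.29 and 4.24 in the wild type. Every knockdown array was above every wild-type array, with a log2 difference of 0.22 ± 0.10 (SE) and a limma adjusted p of 0.902. With any 1 array left out it stayed between 0.18 and 0.25. Its neighbour MX2 read 3.67, 4.27 and 3.82 against 3.75, 3.64 and 4.17, with the high values split between the groups.

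ISG20, an exonuclease, and RSAD2, which encodes viperin and makes a chain-terminating nucleotide, were also apart upward. ISG20 read 5.42, 5.57 and 5.44 in the knockdown, against 5.41, 5.16 and 5.41 in the wild type. The nearest arrays of the groups differed by 0.01, and the difference was 0.07 when wild-type replicate 2 was left out. RSAD2 read 3.55, 3.40 and 3.39 against 3.33, 3.37 and 3.30. Again the nearest arrays were close, and the log2 differences were 0.15 ± 0.11 for ISG20 and 0.11 ± 0.10 for RSAD2 (SE). The other effectors overlapped. IFITM1, which hinders fusion of virus and cell membranes, gave 0.08, SAMD9, a restriction factor of poxviruses, gave 0.07, the antiviral ligase TRIM22 gave -0.07, and BST2, the tether of budding virus, gave -0.08.

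In the last group, IFI44L had the lowest unadjusted p of the 32 genes. Its role is little known. It read 2.89, 2.77 and 2.74 in the knockdown, against 3.19, 3.01 and 3.07 in the wild type, with all knockdown arrays below all wild-type arrays. The log2 difference was -0.29 ± 0.10 (SE), or 0.818-fold with a 95% confidence interval of 0.699 to 0.957, and it remained between -0.34 and -0.24 in the alternatives run. The limma adjusted p was 0.902, and IFI44L was among the dimmest 40% of genes. Its neighbour IFI44 read 2.18, 2.31 and 2.25 against 2.35, 2.28 and 2.35, a log2 difference of -0.08.

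PARP9, of the ADP-ribosyltransferase family, pairs with a ubiquitin ligase. It read 2.66, 2.71 and 3.03 in the knockdown, against 3.16, 3.27 and 2.85 in the wild type. Replicate 3 of each group crossed the other, and the log2 difference was -0.29 ± 0.14 (SE). XAF1, a promoter of apoptosis, read 4.47, 4.56 and 4.61 against 4.52, 4.30 and 4.34, a difference of 0.16 ± 0.10 (SE). IFI27 and IFI6, small mitochondrial proteins often used as blood markers of interferon, gave 0.12 and -0.13, and both overlapped. IFI35 gave 0.07 and the scramblase PLSCR1 gave 0.09, with overlapping groups.

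The members were also compared array by array. Knockdown replicate 1 was the brightest of the 6 arrays for 12 of the 32 genes, where it was so for 17.5% of all genes. Among the 18 dim members it was brightest for 7, where it was so for 19.3% of the dimmest 40% of genes. Among the 14 brighter members it was brightest for 5, where it was so for 16.3% of all genes above the dim filter. Members that lay above their own mean over the 6 arrays numbered 23, 16 and 11 on the knockdown arrays, against 17, 8 and 19 on the wild-type arrays (each by replicate number). Over all genes these shares lay between 46.7% and 53.7%. Knockdown replicate 1 was thus the high array and wild-type replicate 2 the low one, while wild-type replicate 3 was above 2 of the knockdown arrays. The median deviation of the 32 genes was 0.05 in knockdown replicate 1 and in wild-type replicate 3, and -0.06 in wild-type replicate 2.

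The 12 genes that peaked in knockdown replicate 1 were USP18, IFIT3, RSAD2, SAMD9, OASL, OAS2, OAS3, IRF7, PLSCR1, TRIM22, IFI6 and IRF9. Their lead over the next array was 0.51 for USP18 and 0.36 for IFIT3, between 0.10 and 0.15 for the next 5, and 0.05 or less for the remaining 5. On the other USP18 probe set, described above, knockdown replicate 1 was instead the lowest array. Without this array the median log2 difference of the 32 genes was 0.007, with 16 above 0. The same array had the lowest DDX5 signal, and the part of that in these values was not tested.

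**Figure D3:**
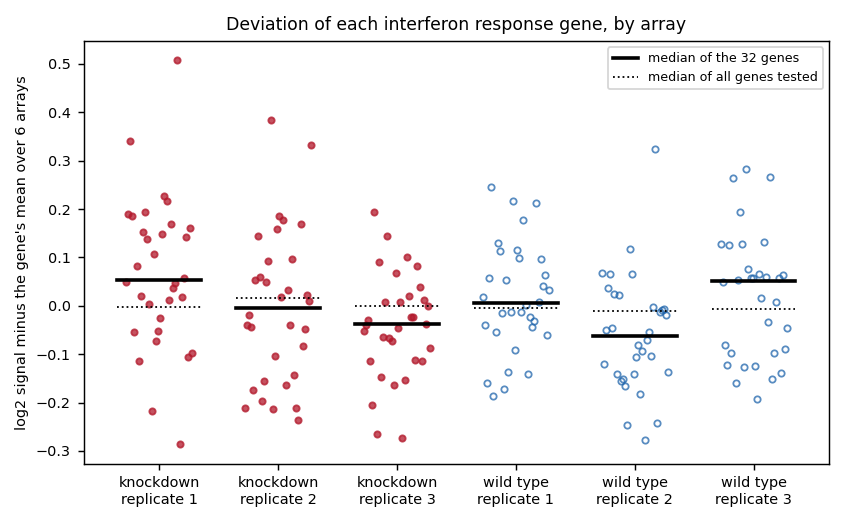
Log2 signal of each interferon response gene minus its own mean over the 6 arrays, by array (1 point per gene), with the median of the 32 genes as a thick line and the median of all genes tested as a dotted line. The thick line is highest in knockdown replicate 1 and wild-type replicate 3, both 0.05, and lowest in wild-type replicate 2, at -0.06.

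Other genes of the interferon pathway did not pass the test either. Of 120 listed genes, 106 were measured, and none had a limma adjusted p under 0.05. At an unadjusted p under 0.05, 3 were higher and 1 was lower, against 3.02% and 2.06% of all genes. The median log2 difference of the 106 was 0.005, with 55 above 0. The groups did not overlap for 5 genes upward and 3 downward, against 5.98% and 4.15% of all genes. The upper 95% limit was under 1.5-fold for 104 of them, close to the share of all genes.

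Among 16 measured interferon genes, IFNL2, a type III interferon, differed most. It read 6.22, 5.85 and 5.93 in the knockdown, against 5.32, 5.41 and 5.55 in the wild type. All knockdown arrays were above all wild-type arrays, by a log2 difference of 0.57 ± 0.12 (SE), or 1.49-fold with a 95% confidence interval of 1.23 to 1.80, and a limma adjusted p of 0.902. IFNL3, its near-identical paralog, read 6.40, 6.35 and 6.39 against 6.45, 6.45 and 6.61, apart in the other direction. Probes for such close copies can share signal, so the value of either gene is uncertain. IFNB1, the interferon that most cells release first on sensing RNA, read 2.79, 2.81 and 3.09 against 2.61, 2.75 and 2.81, a difference of 0.17 ± 0.12 (SE) among the dimmest 40% of genes, which was 0.08 when knockdown replicate 3 was left out. IFNLR1, the receptor chain for type III interferon, read 4.40, 4.55 and 4.40 against 4.41, 4.15 and 4.45.

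Of 6 receptor genes, 4 lay above 0, and IFNGR2, a chain of the interferon gamma receptor, differed most at 0.24 ± 0.12 (SE). Of 8 kinases and transcription factors, 4 lay on each side of 0. JAK2 gave -0.19, and IRF1, an early interferon gamma target, gave -0.14 ± 0.18 (SE), or 0.04 when wild-type replicate 3 and -0.35 when wild-type replicate 1 was left out.

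Of 17 sensors and adaptors, 8 lay above 0. TRAF3, the ubiquitin ligase that links sensors to interferon induction, read 5.05, 4.64 and 4.72 in the knockdown, against 5.08, 5.25 and 5.15 in the wild type. All knockdown arrays were below all wild-type arrays, at -0.36 ± 0.12 (log2 difference ± SE), with knockdown replicate 1 only 0.03 below the nearest. In the same list, 2 adaptors were apart in the other direction. Of the 17 genes, 2 were thus apart upward and 1 downward, against 5.98% and 4.15% of all genes. MYD88, the adaptor of most Toll-like receptors, read 5.07, 5.04 and 5.15 against 4.99, 4.95 and 4.73, a difference of 0.20 ± 0.11 (SE). STING1, the adaptor of cytosolic DNA sensing, read 5.06, 5.20 and 5.08 against 4.87, 5.03 and 4.80, a difference of 0.21 ± 0.11 (SE). RIGI, which encodes RIG-I, gave -0.01 ± 0.13, and TLR3 gave 0.08 ± 0.12. Of 8 negative regulators, 4 lay above 0, with ADAR, the editor that masks cellular duplex RNA, at 0.09 ± 0.11 (SE). PIAS1, an inhibitor of interferon signalling, read 7.79, 7.25 and 7.84 in the knockdown, against 7.84, 7.85 and 7.98 in the wild type. Its difference of -0.26 ± 0.15 (SE) became -0.075 without knockdown replicate 2, the low array.

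Downstream lists were split about 0. Of 11 antigen presentation and interferon gamma target genes, 6 lay above 0, led by the immunoproteasome subunit PSMB10 at 0.19 ± 0.11 (SE). Of 4 chemokines, 2 lay above 0, and CXCL11 read 2.47, 2.39 and 2.41 in the knockdown, against 2.52, 2.73 and 2.54 in the wild type. Of 36 other induced effectors, 20 lay above 0. CNP, a cyclic nucleotide phosphodiesterase of myelin that interferon can induce, differed most, at 6.64, 6.48 and 6.33 against 6.17, 5.99 and 6.14. Its groups did not overlap, and its log2 difference was 0.38 ± 0.11 (SE).

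**Figure D4:**
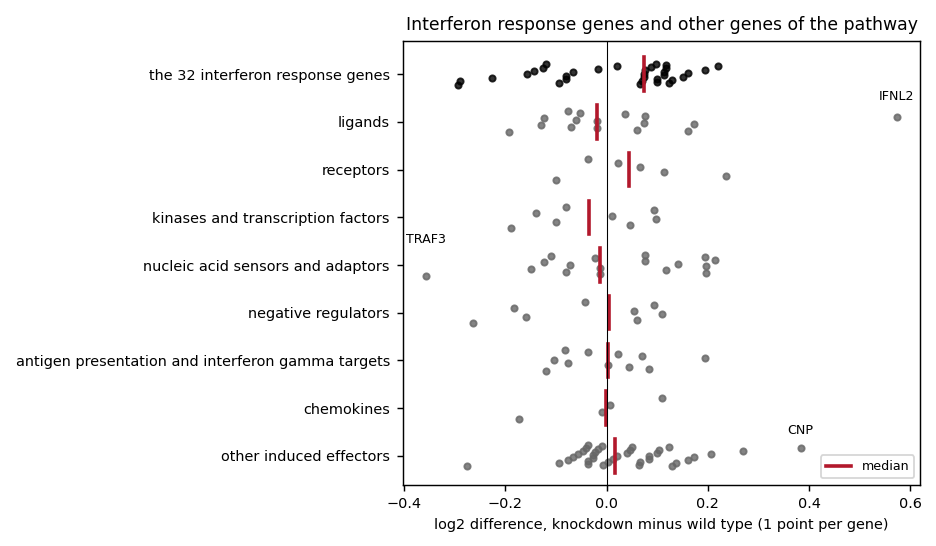
Log2 difference, knockdown minus wild type, of the 32 interferon response genes and of 106 other pathway genes by role (1 point per gene), with the median of each list as a red line. Medians lie between -0.04 and 0.07, and IFNL2 (0.57), CNP (0.38) and TRAF3 (-0.36) lie farthest from 0.

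Markers of other cell types were compared as summed log2 signals. The labels name only the U-87 cell line, so these signals are not read here as the presence of other cells. The 8 microglia and macrophage markers summed to 31.77 to 32.14 in the knockdown and 31.10 to 32.23 in the wild type. The 5 measured markers of plasmacytoid dendritic cells and T cells summed to 18.32 to 18.73 against 17.79 to 18.04, so the sums did not overlap. No share over all genes was worked out for such sums. Of the 5 genes, 2 were themselves apart upward, where 5.98% of all genes were. All 5 lay above 0 and all were among the dimmest 40% of genes. Endothelial markers summed to 22.23 to 22.39 against 21.50 to 22.23, and glioma and astrocyte markers to 42.18 to 43.25 against 41.65 to 42.86. None of these 27 genes had a limma adjusted p under 0.05, and whether their signals exceed background is not known. Over the 27, the groups were apart upward for 6 (CD14, P2RY12, CD3D, CD2, CLDN5 and AQP4) and downward for 1 (SLC1A3), against 5.98% and 4.15% of all genes. At an unadjusted p under 0.05, 3 were higher (CD14 at 0.42, AQP4 at 0.37 and CLDN5 at 0.27) and none lower, against 3.02% and 2.06% of all genes. These 3 differences were larger than that of any interferon response gene above 0 (0.22 for MX1). CD14, the monocyte co-receptor for lipopolysaccharide, read 4.34, 4.65 and 4.39 in the knockdown, against 4.16, 3.79 and 4.17 in the wild type. What gives rise to these marker signals was not tested. Of the 9 glioma and astrocyte lineage markers, 6 lay above 0 and 5 were among the dimmest 40% of genes. AQP4, a water channel of astrocytes and itself in that dim part, was apart upward. It read 2.93, 3.22 and 3.09 in the knockdown, against 2.70, 2.80 and 2.64 in the wild type. The filament genes GFAP and VIM gave -0.09 and -0.20, with overlapping groups. The array medians of all probe sets lay between 4.32 and 4.37.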

How the data were processed

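Total RNA of 6 U-87 samples was hybridised to Affymetrix arrays. The deposited table holds log2 signals made with RMA by the authors, per the submitters' processing notes; its software version and filters were not given. RMA equalises signal distributions, which hides any shift common to most genes. Of 29096 probe sets, 19460 had 1 gene symbol, 1754 several and 7882 none. The probe set with the highest mean was kept for each of 18417 genes. The 33 genes, the pathway and marker lists and the named genes (the 33, DDX5, IFNB1, IRF1, RIGI, TLR3, ADAR and each pathway list's largest difference) were chosen with earlier results of these data known. IFNL3, IFNLR1, B2M, CD44, MYD88, STING1 and the single cell type markers were named after their values were seen. Groups were compared over all genes with limma 3.58.1 in R 4.3.3 (lmFit, eBayes, two-sided, Benjamini-Hochberg, threshold 0.05), tested on simulated data. The number of arrays limits the precision. Alternatives were array centring, cyclic loess, a dim filter, probe set choice, an intensity trend, array weights, a replicate block and leaving out each array.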

Additional observations from a re-analysis of the deposited data

How the results depend on the processing

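No gene, and so no interferon response gene, was called by limma under any of the 14 alternatives; the lowest adjusted p of a member was 0.661, without knockdown replicate 1. With single arrays left out, the median log2 difference of the members had its lowest value, 0.0067, when knockdown replicate 1 was omitted and its highest, 0.10, when knockdown replicate 3 was omitted; the number above 0 ran from 16 to 21, and DDX5 from -0.58 to -0.36. Without the dimmest 40% of genes, 14 members were tested, 10 of them lay above 0 and their median was 0.11. In the other alternatives the median was 0.05 to 0.07. In the alternatives that held the gene (13 or 14 each, since the dim filter kept 14 members), 22 of the 32 members had the same direction throughout, 13 above 0 and 9 below. With the replicate number as a block the member median was 0.07 and no gene was called. Genes at an unadjusted limma p under 0.05 then numbered 1149, against 937 in the main fit. The deviations of same-numbered arrays correlated with r = 0.27, -0.03 and 0.13, and those of differently numbered arrays with -0.25 to 0.17. The closest 2 of all arrays were knockdown replicate 3 and wild-type replicate 3 (SD of the difference 0.195). The labels do not say that the numbers pair the samples, so whether they do is not settled, and the main fit did not use them. Low signal limits what can be seen for the 18 dim members.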

Other observations

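Outside the 33 genes, SAMD9L and PARP14, both interferon-induced and chosen after their values were seen, were brightest in knockdown replicate 1. SAMD9L read 3.65, 3.20 and 3.25 in the knockdown, against 3.37, 3.29 and 3.38 in the wild type. PARP14 read 3.74, 3.29 and 3.26 against 3.28, 3.19 and 3.52. Of the 36 other induced effectors, the list that holds both, 9 were brightest on that array, where 17.5% of all genes were. Over the 106 pathway genes, the number above the gene's own mean was 60, 50 and 54 on the knockdown arrays, against 54, 43 and 52 on the wild-type arrays (each by replicate number), where the shares over all genes were 46.7% to 53.7%. APOL1, a secreted lipoprotein component chosen likewise, read 4.56, 4.61 and 4.91 in the knockdown, against 4.36, 4.39 and 4.52 in the wild type, with groups apart and a log2 difference of 0.27 ± 0.12 (SE, n = 3 each; limma adjusted p = 0.902).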
